A study of Mus musculus with 4 samples.

Results

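The 36 genes described here are *Myc* and 35 genes of ribosome biogenesis, nucleotide and polyamine synthesis and the mitochondrial chaperonin that are commonly listed as targets of MYC. They were taken by symbol from the 32285 genes of the files, and all 36 were found. Their levels were read in 4 single-cell RNA sequencing libraries, 1 per condition, from cultured cells of male C57BL/6J mice fed chow diet. De-differentiated fat (DFAT) cells make up the iWAT_DFAT and eWAT_DFAT libraries. They grow out of mature adipocytes that float to the ceiling of a filled flask, from inguinal (subcutaneous) and from epididymal (visceral) white adipose tissue. The iWAT_ASPC and eWAT_ASPC libraries hold cultured cells of the stromal vascular fraction (SVF) of the same depots, which contains the adipose stem and progenitor cells (ASPCs). Neither the labels nor the Methods give the age of the mice or the number pooled for each of these cultures, and no transgene or drug treatment is given for them.

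A ribosome is made in the nucleolus. RNA polymerase I transcribes the ribosomal RNA precursor, small nucleolar ribonucleoproteins (snoRNPs) modify it, and assembly factors cut and fold it into the small and the large subunit. MYC is a transcription factor that pairs with MAX, binds the E-box CACGTG, and is known for driving this programme together with the synthesis of nucleotides and polyamines in growing cells. In adipose cells, MYC is also known for effects on proliferation and on the start of adipocyte differentiation.

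Since MYC with MAX binds the E-box, the promoters of the module that hold these letters are shown first. A promoter is here the stretch from 250 bases before to 50 bases after the start site in RefSeq on GRCm38.p6, and 29 of the 36 genes were matched. The other 7, *Myc* among them, were not examined. The exact E-box CACGTG, which reads the same on both strands, was found in 6 of the 29, given here 5′ to 3′ on the strand of the gene with the E-box in capitals.
Hspd1, chr1:55088306-55088335, minus strand: ggccggctgggaCACGTGaaaaggccgcgc
Mybbp1a, chr11:72441355-72441376, plus strand: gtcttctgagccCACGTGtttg
Nop2, chr6:125131811-125131840, plus strand: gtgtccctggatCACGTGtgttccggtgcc
Pes1, chr11:3963965-3963994, plus strand: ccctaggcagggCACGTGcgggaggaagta
Utp20, chr10:88826765-88826789, minus strand: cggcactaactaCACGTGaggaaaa
Wdr43, chr17:71616220-71616249, plus strand: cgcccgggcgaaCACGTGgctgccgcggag

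The E-box lay before the start site in *Hspd1* and *Nop2* and after it in the other 4. CACGTG was thus found for 20.7% of the members (exact 95% binomial interval 7.99 to 39.7%), where a gene counts if any of its promoters holds it. It was found for 12.1% of 8536 genes at a level of 5 or more CPM in a library (UMIs scaled to 1000000 per library, as explained with the levels). The share was 8.09% of all 27025 genes with a promoter in the reference. The variant CACGCG, searched on both strands, was in 12 members (41.4%), in 20.9% of the genes at that level and in 10.5% of all. The members' promoters were also richer in G and C, with a median of 60.7% against 52.7% over all promoters. Some genes have several promoters in these medians, and the genes at 5 or more CPM were not compared on their own. A match describes the letters only.

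After filters of 5000 to 75000 UMIs (unique molecular identifiers, each standing for 1 captured RNA molecule), 200 to 7500 genes and under 10% mitochondrial UMIs, the iWAT_DFAT, eWAT_DFAT, iWAT_ASPC and eWAT_ASPC libraries held 7629, 6464, 7424 and 6745 cells. The median cell had between 22111 and 27617 UMIs, and pairs of libraries shared 13 to 20 cell barcodes. The labelled cell types were checked with marker lists. The 6 ASPC markers were all detected in each library, and their summed level was 4734, 1448, 4114 and 3872 CPM (UMIs of a gene per 1000000 UMIs of the library's cells). The 5 adipocyte markers summed to 19.8 and 75.1 CPM in the iWAT and eWAT DFAT libraries and to 0.436 and 1.002 CPM in the ASPC libraries, and *Lep* was at 0 in all 4. Lists of 5 markers each for other cell types were low but uneven. Mesothelial markers summed to 5.81 and 10.7 CPM in the iWAT and eWAT DFAT libraries and to 71.3 and 84.8 CPM in the ASPC libraries, where 26.1% and 10.3% of the cells held 3 or more of their UMIs. In iWAT_ASPC *Krt19* alone gave 70.7 CPM of this sum and the other 4 genes were each at or below 0.532 CPM, so the 26.1% is in the main a count of *Krt19*. In eWAT_ASPC all 5 genes were present, at 8.51 to 31.2 CPM. Immune markers summed to 56.5 CPM in eWAT_ASPC, of which *Lyz2* gave 40.6 CPM, and to between 17.6 and 20.3 CPM in the other 3, where *Csf1r* gave 11.1 to 18.4 CPM. *Ptprc* and *Adgre1* were at or below 0.486 CPM in all 4. The sums of endothelial markers lay between 7.39 and 35.2 CPM, and those of neural markers were 26.3 CPM in iWAT_ASPC and at most 5.01 CPM elsewhere. With 1 library per condition no test between conditions was possible: each interval below is a 95% interval for counting error only, and differences between cultures were not measured.

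The eWAT_DFAT library stood above the other 3 for nearly the whole module. The 36 genes took 0.806% of its UMIs, against 0.569% in iWAT_DFAT, 0.548% in iWAT_ASPC and 0.466% in eWAT_ASPC. Summed values rest mostly on a few abundant genes. In eWAT_DFAT *Npm1*, *Ncl*, *Hspe1* and *Hspd1* gave 2322, 1066, 861 and 738 of the 8063 CPM of the sum. For 34 of the 36 members the highest level was in eWAT_DFAT. The other 2, *Myc* itself and *Cad*, the enzyme that starts pyrimidine synthesis, were highest in iWAT_DFAT. The lowest level was in eWAT_ASPC for 25 members, in iWAT_DFAT for 7 and in iWAT_ASPC for 4. The most common order, in 18 members, ran from eWAT_DFAT over iWAT_DFAT and iWAT_ASPC down to eWAT_ASPC. The shares of all genes with such orders are not given here. The *Polr1b* levels of the DFAT libraries, like those of several members in the ASPC libraries, were within counting error of each other.

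**Figure D1:**
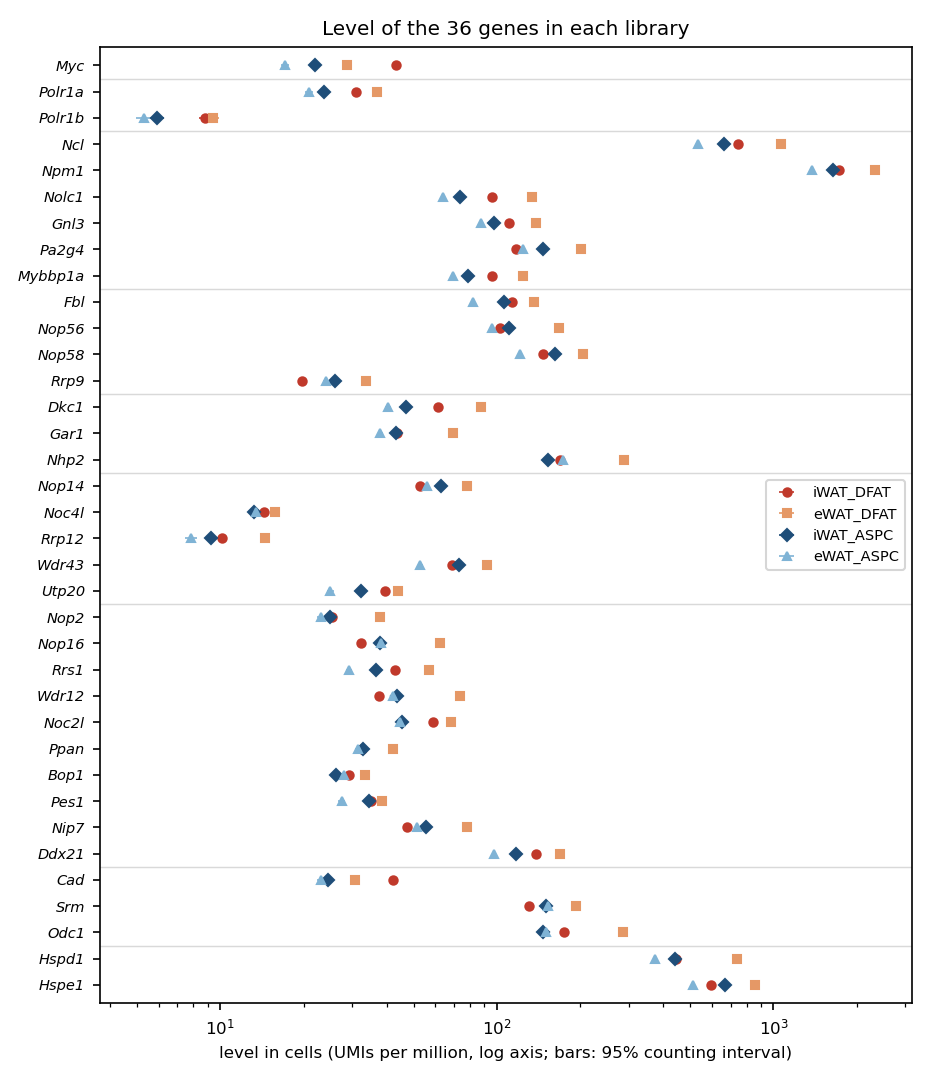
Level of each of the 36 genes in CPM (log axis) in the 4 libraries, with 95% Poisson intervals for counting error, and with grey lines between groups of genes by role. The eWAT_DFAT squares lie to the right of the other symbols in 34 genes, and the iWAT_DFAT circles do so for Myc and Cad.

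The difference was also seen in the typical cell. The median cell gave 0.780% of its UMIs to the 36 genes in eWAT_DFAT, and 0.484%, 0.519% and 0.423% in iWAT_DFAT, iWAT_ASPC and eWAT_ASPC. In eWAT_DFAT, 10% of the cells lay below 0.443% and 10% above 1.15%. In iWAT_DFAT these bounds were 0.281% and 0.863%, so the distributions overlapped widely.

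**Figure D2:**
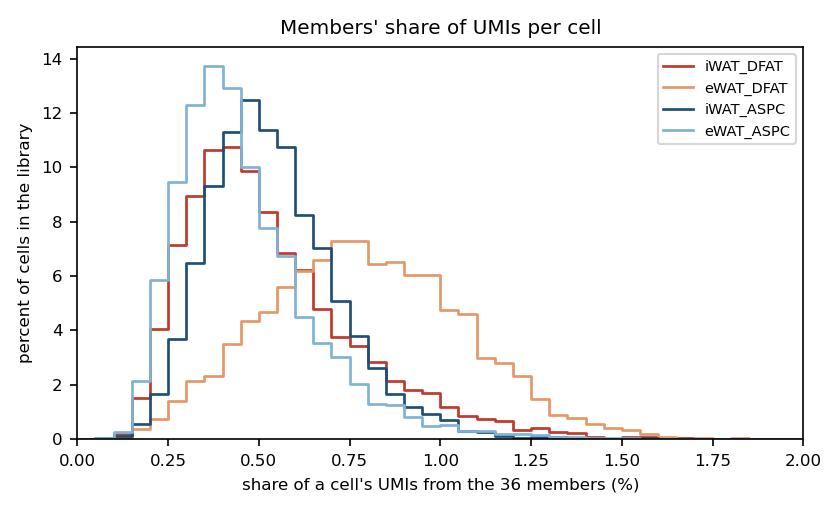
Share of a cell's UMIs that came from the 36 genes (horizontal axis, percent) against the percent of the library's cells in each bin of that share. The curve of eWAT_DFAT lies to the right of the other 3, with a median of 0.780% per cell.

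*Myc* (chr15:61985391-61990374, plus strand, GRCm38) departed from most of the genes that are listed as its targets in the contrast between the DFAT libraries. Its level was 43.2 CPM (42.3 to 44.2) in iWAT_DFAT, 28.7 CPM (27.9 to 29.5) in eWAT_DFAT, 22.1 CPM (21.4 to 22.7) in iWAT_ASPC and 17.2 CPM (16.6 to 17.7) in eWAT_ASPC. The 4 libraries were thus separated beyond counting error, both DFAT libraries were above both ASPC libraries, and iWAT was above eWAT in each culture. The log2 ratio of iWAT over eWAT was 0.59 (0.54 to 0.64) in DFAT cells and 0.36 (0.30 to 0.43) in ASPCs. After each cell was thinned to 5000 UMIs, *Myc* had a UMI in 19.0% of iWAT_DFAT cells, 12.6% of eWAT_DFAT cells, 9.81% of iWAT_ASPC cells and 7.96% of eWAT_ASPC cells. Without thinning these shares were 56.3%, 47.9%, 39.4% and 34.1%. No cell type that lacks *Myc* was defined here, so the share that free RNA gives was not measured. In droplets of 1 to 100 UMIs, which hold free RNA, *Myc* was at 52.2 CPM (47.0 to 57.7), 32.4 CPM (28.4 to 36.8), 30.7 CPM (26.7 to 35.02) and 16.6 CPM (13.8 to 19.9). The intervals of eWAT_DFAT and iWAT_ASPC overlapped there.

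The DFAT libraries were compared between depots, where depot cannot be told apart from culture or library. Of the 36 members, 34 were lower in iWAT_DFAT than in eWAT_DFAT, with a median log2 ratio of -0.48 against 0.09 over the 10384 genes that reached 5 CPM in either library. Of all these genes, 57.2% were higher in iWAT_DFAT. A total of 11 members were lower by more than 1.5-fold (30.6%, against 9.1% of all genes), and 1, *Myc*, was higher by more than 1.5-fold (2.78%, against 17.6% of all genes). *Myc* lay just past this limit and below it under 4 of the 11 alternative settings that include it. In cells with 0 or 1 cell cycle UMIs 19 members were lower by more than 1.5-fold, and in cells of 10000 to 30000 UMIs 18. The shares of all genes in these cells were not computed. The summed members were at 4304 against 7255 CPM in cells of 10000 to 20000 UMIs, and closer, at 6567 against 8198 CPM, in cells of 30000 to 75000 UMIs. In cells of 5000 to 10000 UMIs they were at 5088 against 7259 CPM. The ratios ran from -0.97 in *Wdr12* to 0.59 in *Myc*, and 28 members lay below the lower quartile of all genes, which was -0.22. The libraries also differed in the median mitochondrial share of a cell, 3.12% in iWAT_DFAT against 1.95% in eWAT_DFAT, and in the nuclear RNA *Malat1*, 8820 against 7060 CPM. The marker lists moved as well: ASPC markers summed to 4734 against 1448 CPM, adipocyte markers to 19.8 against 75.1 CPM and endothelial markers to 7.39 against 30.1 CPM. The members' median was -0.50 without cells that held 3 or more UMIs of the adipocyte markers, and -0.50 without those that held as many of an endothelial, mesothelial, neural or immune list. The part of the ASPC markers, of *Malat1* and of the mitochondrial share was not tested.

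The ASPC libraries were compared between depots in the same way, with the same limit, for cells that had not de-differentiated. Here 30 members were higher and 6 lower in iWAT_ASPC than in eWAT_ASPC, with a median log2 ratio of 0.18 against 0.05 over 10135 genes. Of all these genes, 57.3% were higher in iWAT_ASPC. The cell cycle list was higher in iWAT_ASPC as well, in 21 of its 22 genes and with a median of 0.38, and in cells with 0 or 1 cell cycle UMIs the members' median was 0.15. Neural markers summed to 26.3 against 1.61 CPM, immune ones to 19.8 against 56.5 CPM and ASPC markers to 4114 against 3872 CPM. *Malat1* was at 8770 against 6751 CPM, and its part was not tested. No member passed 1.5-fold in either direction (0%), against 7.25% of all genes higher and 7.44% lower. The file header of iWAT_ASPC names version 4 of the counting software Cell Ranger and that of eWAT_ASPC 7.1.0, and the part of this was not tested. When the libraries were scaled by the median ratio over genes and not by total UMIs, every gene shifted by -0.11 and 25 members were higher and 11 lower. The depot ratio was negative in DFAT cells and positive in ASPCs for 28 members, for 25 of them with both intervals clear of 0. With the scaling by the median ratio this number was 24, since the ASPC ratios of *Wdr12*, *Noc2l*, *Ppan* and *Nip7* changed sign. The share of all genes with these opposite directions is not given here. In the scaling by total UMIs the difference between both log2 ratios had a median of -0.68. It was below 0 for 34 members beyond counting error, and above 0 for *Myc* (0.23) and *Cad* (0.37). The share of all genes with a difference beyond counting error is not given here.

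**Figure D3:**
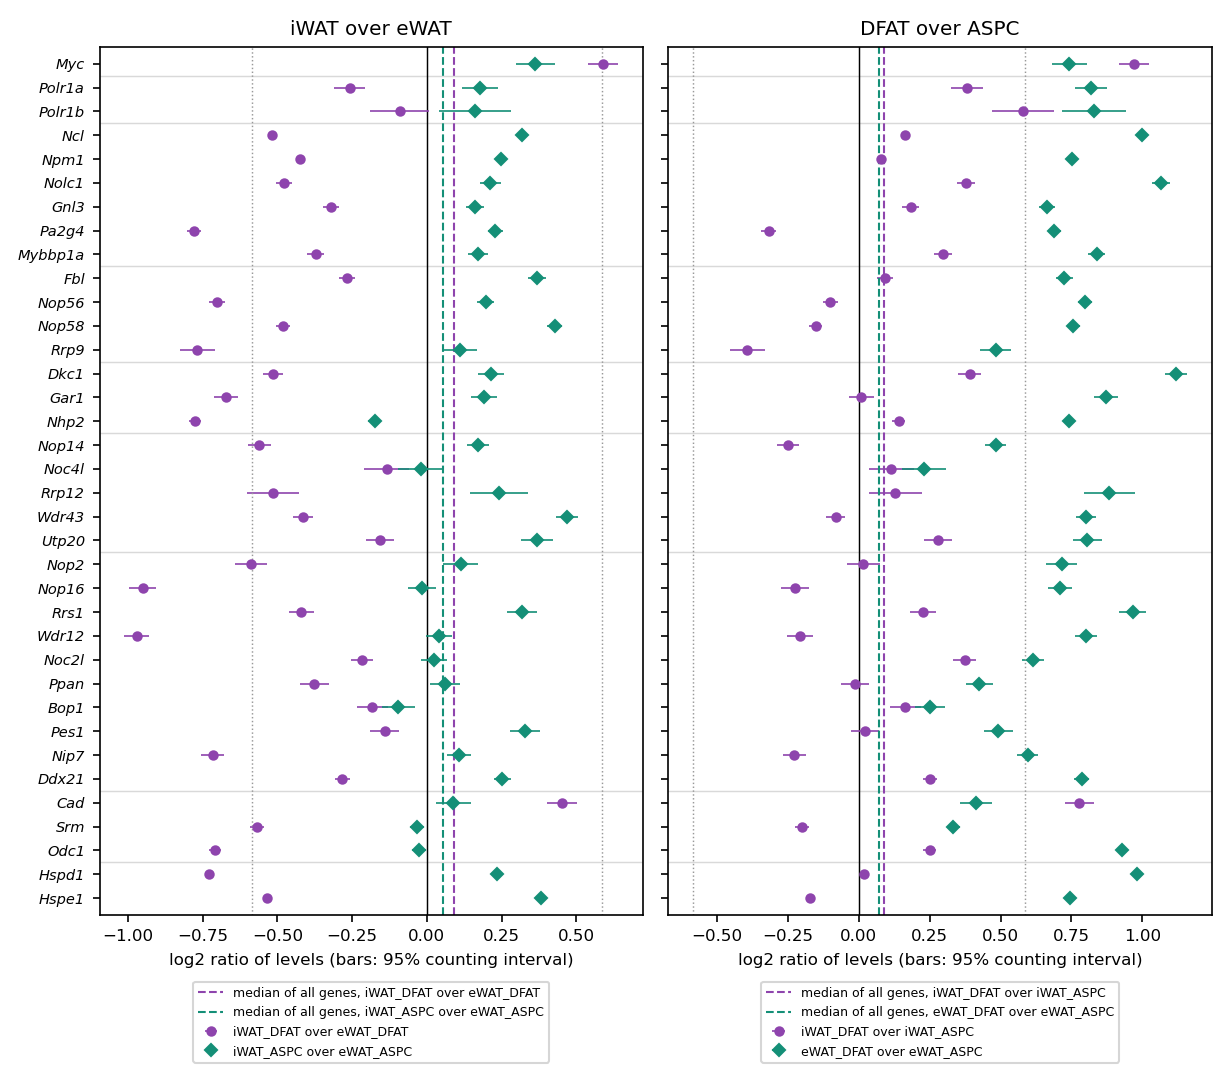
Log2 ratio of levels for each of the 36 genes, iWAT over eWAT on the left and DFAT over ASPC on the right, with 95% counting intervals, dashed lines at the median of all genes and dotted lines at 1.5-fold. On the left, 34 purple circles (DFAT cells) lie left of 0 and 30 green diamonds (ASPCs) right of it, and on the right all green diamonds (eWAT) lie right of 0.

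In eWAT, all 36 members were higher in DFAT cells than in ASPCs, as were 56.1% of all genes that reached 5 CPM in either library. The members' median log2 ratio was 0.75, against 0.07 over 10298 genes, and their ratios ran from 0.23 in *Noc4l* to 1.12 in *Dkc1*. A total of 28 members were higher by more than 1.5-fold (77.8%, against 15% of all genes), and none was lower by that much (0%, against 13.1%). The scaling by the median ratio shifted every gene by -0.17, which left all 36 higher and 16 past 1.5-fold. The share of all genes past 1.5-fold in this scaling was not computed. The cell cycle list was higher in eWAT_DFAT as well: all 22 of its genes were above eWAT_ASPC, with a median log2 ratio of 0.40. Among cells with 0 or 1 cell cycle UMIs, eWAT_DFAT was highest for 33 members when levels were read from all UMIs of these cells, and for 30 when read from thinned counts. The adipocyte markers also differed, at 75.1 against 1.002 CPM, as did the mesothelial ones, at 10.7 against 84.8 CPM, and the immune ones, at 17.6 against 56.5 CPM, mainly through *Lyz2* (2.54 against 40.6 CPM). The ASPC markers summed to 1448 against 3872 CPM, with 5 of the 6 lower in eWAT_DFAT, and their part was not tested. Without cells that held 3 or more UMIs of a marker list of another type the median was 0.80. In cells with fewer than 3 UMIs of the adipocyte markers, a choice made after seeing the data, eWAT_DFAT stayed highest for 34 members.

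In iWAT the direction of the module between DFAT cells and ASPCs depended on the cells that were read. Over all cells the median log2 ratio was 0.10, against 0.09 over 10426 genes, with 24 members higher and 12 lower. Of all these genes, 57.6% were higher in iWAT_DFAT. By length of the gene with introns, the medians of members and of all genes were 0.0089 and -0.068 under 10000 bases (17 members). They were 0.16 and 0.052 from 10000 to 30000 bases (14 members), and 0.13 and 0.17 from 30000 to 100000 bases (5 members). Only *Myc* (0.97, 0.92 to 1.02) and *Cad* (0.78, 0.73 to 0.83) passed 1.5-fold higher (5.56%, against 18.4% of all genes), and none passed it lower (0%, against 10.1%). With the other scaling, which shifted every gene by -0.08, 19 were higher and 17 lower. In cells with 0 or 1 cell cycle UMIs the median was reversed, at -0.13, and 5 members were lower by more than 1.5-fold. The median and the share over all genes in these cells were not computed. The direction also turned with depth: the summed members were at 4304 CPM in iWAT_DFAT against 5132 CPM in iWAT_ASPC in cells of 10000 to 20000 UMIs, and at 6567 against 5603 CPM in cells of 30000 to 75000 UMIs. In cells of 5000 to 10000 UMIs they were nearly level, at 5088 against 5158 CPM.

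**Figure D4:**
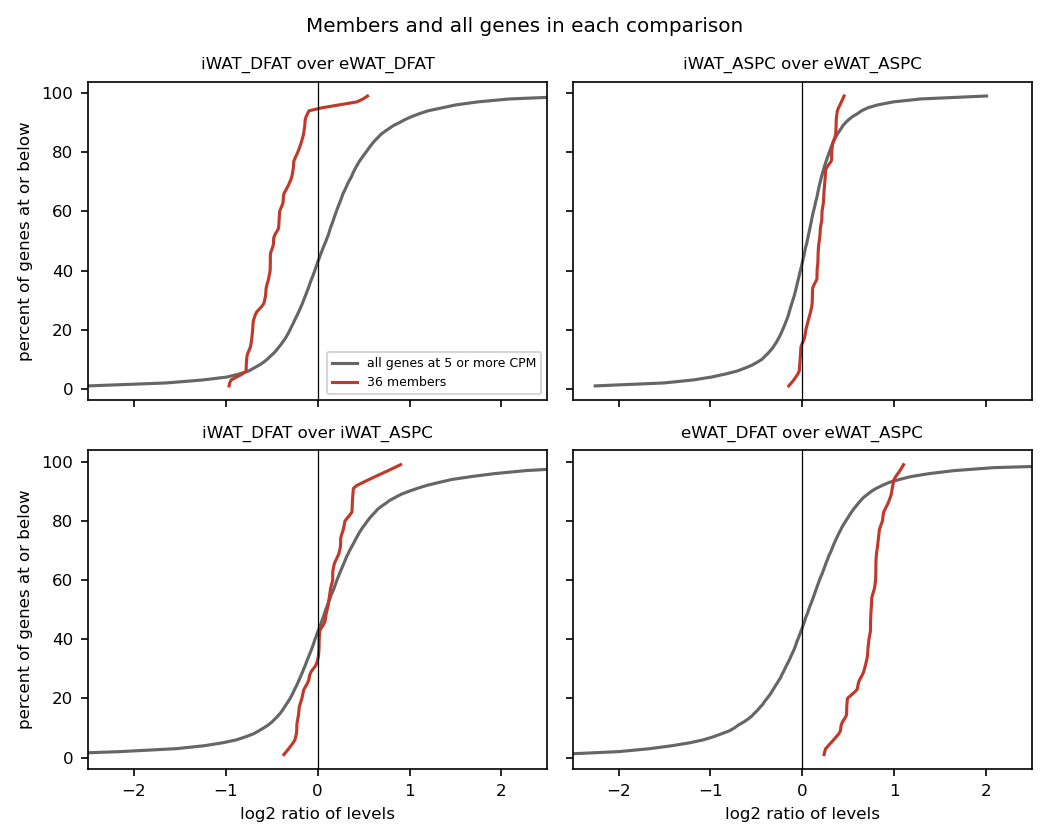
Percent of genes (vertical axis) at or below each log2 ratio (horizontal axis) in the 4 comparisons, for the 36 members (red) and for all genes that reached 5 CPM in either library (grey). The red curve lies left of the grey one over most of its range in iWAT_DFAT over eWAT_DFAT, where the medians were -0.48 and 0.09, and right of it in eWAT_DFAT over eWAT_ASPC, where they were 0.75 and 0.07.

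By role, RNA polymerase I showed one of the smaller depot contrasts in DFAT cells. *Polr1a*, the largest catalytic subunit, was at 30.9, 36.9, 23.7 and 20.9 CPM in iWAT_DFAT, eWAT_DFAT, iWAT_ASPC and eWAT_ASPC, an order of libraries kept for the values that follow. *Polr1b*, the second catalytic subunit, was at 8.84, 9.41, 5.92 and 5.30 CPM. Both were above the ASPC libraries in either DFAT library.

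The 6 nucleolar phosphoproteins and their partners were all lower in iWAT_DFAT than in eWAT_DFAT, with a median log2 ratio of -0.45. *Npm1*, a histone and ribosomal protein chaperone that makes up much of the granular nucleolus, was at 1730, 2322, 1639 and 1379 CPM. *Ncl*, which binds the ribosomal RNA precursor, was at 745, 1066, 665 and 533 CPM. For both genes eWAT_DFAT was well above the rest and eWAT_ASPC lowest, and *Ncl* reached a 2.00-fold difference between these libraries. *Nolc1*, a chaperone of snoRNPs, was at 95.9, 134, 73.9 and 63.8 CPM. *Pa2g4*, a growth regulator that binds ribosomes, had the largest depot contrast of the group, with 117, 201, 146 and 125 CPM and a log2 ratio of -0.78 (-0.80 to -0.75) in DFAT cells. *Pa2g4* was lowest in iWAT_DFAT, below both ASPC libraries. *Gnl3*, a nucleolar GTPase of stem and dividing cells, and *Mybbp1a*, a nucleolar repressor that carries the E-box shown above, had log2 ratios of -0.32 and -0.37.

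Among the snoRNPs, the box C/D particle guides 2′-O-methylation and the box H/ACA particle guides pseudouridylation of ribosomal RNA. *Nop56*, a core C/D protein, was at 103, 168, 110 and 96.4 CPM, and its partner *Nop58* at 146, 204, 163 and 121 CPM. The methyltransferase *Fbl* was at 113, 136, 106 and 82.2 CPM, and *Rrp9*, the protein specific to the U3 snoRNP, at 19.8, 33.8, 26.0 and 24.1 CPM. The 4 genes shared the high eWAT_DFAT value but not the rest of the order, since *Rrp9* was lowest in iWAT_DFAT and *Fbl* lowest in eWAT_ASPC. *Dkc1*, the pseudouridine synthase, was at 61.4, 87.8, 46.8 and 40.4 CPM. Its span of 2.17-fold from eWAT_ASPC to eWAT_DFAT was the largest among the 35 members other than *Myc*, which spanned 2.52-fold. *Gar1* and *Nhp2*, the other H/ACA proteins of the module, were past 1.5-fold lower in iWAT_DFAT than in eWAT_DFAT, with log2 ratios of -0.67 and -0.78. *Nhp2* went the other way from most members in ASPCs, where its ratio was -0.17 (-0.20 to -0.15).

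The small subunit factors were all lower in iWAT_DFAT than in eWAT_DFAT, and none passed 1.5-fold. *Wdr43*, a protein of the small subunit processome that joins the precursor early, was at 69.1, 92.0, 73.1 and 52.9 CPM and had the largest depot ratio in ASPCs, 0.47 (0.43 to 0.50). *Utp20*, a processome scaffold, was at 39.3, 43.7, 32.3 and 25.03 CPM. *Nop14*, *Rrp12* and *Noc4l*, which act in maturation and export of the small subunit, had ratios of -0.56, -0.52 and -0.13 in DFAT cells. *Noc4l* had the flattest profile of the module, from 13.3 to 15.8 CPM.

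Among the 10 large subunit factors, *Wdr12* and *Nop16* had the largest depot contrasts of the module in DFAT cells. As a group the 10 did not, with a median log2 ratio of -0.40 against -0.67 in the box H/ACA and -0.59 in the box C/D proteins. *Wdr12*, the WD-repeat member of the PeBoW complex that matures 5.8S and 28S ribosomal RNA, was at 37.6, 73.6, 43.4 and 42.3 CPM, with a log2 ratio of -0.97 (-1.01 to -0.93). *Nop16*, a factor of early large subunit particles, was at 32.3, 62.4, 37.7 and 38.2 CPM, with -0.95 (-0.9965 to -0.91). Both were lowest in iWAT_DFAT, and the ASPC libraries lay close together. The other PeBoW members did not share this contrast: *Pes1* had a ratio of -0.14 and *Bop1* of -0.18. *Nip7* and *Nop2*, a factor of ribosomal RNA processing and a ribosomal RNA methyltransferase, were also past 1.5-fold, with -0.72 and -0.59. *Rrs1*, *Ppan*, *Ddx21* and *Noc2l*, the remaining 4, had ratios of -0.42, -0.38, -0.28 and -0.22.

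The enzymes went different ways. *Odc1*, the first enzyme of polyamine synthesis, was at 175, 286, 147 and 150 CPM, and *Srm*, which makes spermidine, at 131, 193, 150 and 154 CPM. Both had their highest level in eWAT_DFAT, but *Srm* was lowest in iWAT_DFAT and *Odc1* was not. *Cad* was at 42.0, 30.7, 24.5 and 23.05 CPM, which is the order of libraries seen for *Myc*. *Hspd1* and *Hspe1*, the chaperonin and co-chaperonin that fold proteins in mitochondria, were at 445, 738, 440 and 374 CPM and at 594, 861, 669 and 513 CPM. These genes lie head to head on chromosome 1, at chr1:55077835-55088243 on the minus strand and chr1:55088132-55091307 on the plus strand, and both had a DFAT depot ratio below -0.5.

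The 6 genes with CACGTG had DFAT depot ratios of -0.73 in *Hspd1*, -0.59 in *Nop2*, -0.41 in *Wdr43*, -0.37 in *Mybbp1a*, -0.16 in *Utp20* and -0.14 in *Pes1*.

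Within each library, members were higher in cells with more cell cycle transcripts. Cells were thinned to 5000 UMIs and grouped by the UMIs of 22 cell cycle genes. In iWAT_DFAT the summed members were at 3865, 5304 and 6617 CPM in cells with 0 to 1, 2 to 9 and 10 or more such UMIs. The same bands gave 5758, 7721 and 9232 CPM in eWAT_DFAT, 4495, 5460 and 6072 CPM in iWAT_ASPC, and 3899, 4646 and 5617 CPM in eWAT_ASPC. The highest band was thus 1.71-, 1.60-, 1.35- and 1.44-fold above the lowest, and eWAT_DFAT was above the other libraries within every band. *Dkc1* had log2 ratios between the bands of 1.41, 1.15, 0.98 and 1.17, and *Nop56* of 1.26, 1.17, 0.90 and 1.18. A total of 29 members were higher in the highest band beyond counting error in all 4 libraries (80.6%, against 18.3% of the 8984 genes at 5 or more CPM in all of them). Genes with more UMIs pass counting error more easily, and members and all genes were not matched for level. Cells of the highest band were deeper before thinning, for example 27082 against 19140 UMIs in the median iWAT_DFAT cell. The members also differed with depth itself: from cells of 10000 to 20000 UMIs to cells of 30000 to 75000 UMIs their sum went from 4304 to 6567 CPM in iWAT_DFAT, from 7255 to 8198 CPM in eWAT_DFAT, from 5132 to 5603 CPM in iWAT_ASPC and from 4330 to 4758 CPM in eWAT_ASPC. In cells of 5000 to 10000 UMIs the sum was 5088, 7259, 5158 and 4679 CPM in these libraries. In iWAT_DFAT and eWAT_ASPC this was above the sum in cells of 10000 to 20000 UMIs, and in eWAT_DFAT and iWAT_ASPC within counting error of it. From 10000 UMIs upward the sum rose with depth in all 4 libraries. Depth and cell cycle transcripts were not separated.

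*Myc* did not have one direction in the 4 libraries. In iWAT_DFAT it was at 46.7, 46.3 and 38.4 CPM in the 3 bands, lower in the highest band by a log2 ratio of -0.28 (-0.46 to -0.10). In iWAT_ASPC it was at 21.6, 23.3 and 18.1 CPM, with a ratio of -0.26 whose interval held 0 (-0.53 to 0.014). In eWAT_DFAT it was at 23.9, 27.0 and 29.6 CPM and in eWAT_ASPC at 16.1, 16.3 and 20.1 CPM. It was higher in the highest band there by 0.31 (0.027 to 0.59) and 0.32 (0.0081 to 0.63), with lower ends near 0. The intervals leave out spread between cells beyond counting error. The variance of *Myc* over its mean in thinned cells was 1.05 in eWAT_DFAT and 1.07 in eWAT_ASPC. The share of cells in the highest band was 34.5%, 38.7%, 35.2% and 24.6%.

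**Figure D5:**
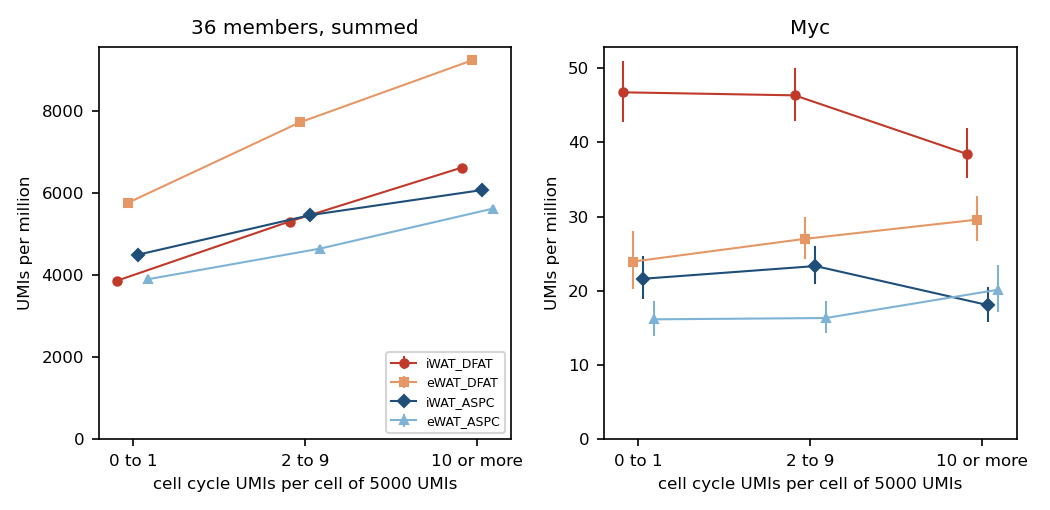
Summed level of the 36 genes (left) and of Myc (right), in CPM with 95% counting intervals, in cells of each library grouped by their UMIs of 22 cell cycle genes after thinning to 5000 UMIs. The members' lines climb in all 4 libraries, from 3865 to 6617 CPM in iWAT_DFAT, while Myc in iWAT_DFAT goes from 46.7 to 38.4 CPM.

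Cells with and without a *Myc* UMI had similar levels of the other 35 members in iWAT_DFAT. At 0, 1 and 2 or more *Myc* UMIs per thinned cell these were at 5313, 5229 and 5512 CPM. In eWAT_DFAT they were at 7836, 8416 and 7788 CPM, in iWAT_ASPC at 5376, 5530 and 5651 CPM, and in eWAT_ASPC at 4563, 5125 and 6054 CPM. Of the 35 members, 2, 17, 6 and 15 were higher beyond counting error in cells with a *Myc* UMI, against 5.95%, 7.36%, 4.31% and 7.92% of all genes at 5 or more CPM in these libraries. In iWAT_DFAT 1 member was lower (against 5.46% of all genes) and none in the other 3 libraries (against 4.09%, 3.42% and 4.6%). Members and all genes were again not matched for level. Cell cycle UMIs differed between the same cells: at 0 and 1 *Myc* UMIs a thinned cell had a mean of 8.50 and 7.55 in iWAT_DFAT, 8.55 and 9.49 in eWAT_DFAT, 8.52 and 7.73 in iWAT_ASPC, and 6.25 and 7.01 in eWAT_ASPC. Their part in these counts was not tested. At most 199 cells of a library had 2 or more *Myc* UMIs, and a cell without one at this depth may still express the gene.

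Other genes of the pathway, from lists that exclude the members, had the same directions as the module, with medians nearer to 0. Of 141 genes at 5 or more CPM, 111 were lower in iWAT_DFAT than in eWAT_DFAT, with a median log2 ratio of -0.27, and 20 of them passed 1.5-fold lower (14.2%, against 9.1% of all genes) and 3 higher (2.13%, against 17.6%). In eWAT, 134 of 141 were higher in DFAT cells than in ASPCs, with a median of 0.49 and 56 past 1.5-fold (39.7%, against 15% of all genes). *Mrto4*, an assembly factor related to a protein of the ribosomal stalk, was at 85.8, 166, 96.6 and 93.2 CPM. *Ebna1bp2*, another large subunit factor, had a DFAT depot ratio of -0.85. *Timm10*, which carries proteins between the mitochondrial membranes, had -0.96, while the protease *Lonp1* of the same list had 0.70. *Polr1e* and *Cd3eap* of the polymerase I machinery had -0.77 and -0.61, *Pno1* and *Dimt1* of the small subunit -0.68 and -0.64, *Snu13* of the snoRNPs -0.63 and *Exosc1* of the RNA exosome -0.71. Among nucleotide and polyamine genes, *Sms* and *Atic* were lower in iWAT_DFAT, with -0.77 and -0.62. *Azin1*, which raises the activity of ornithine decarboxylase by binding its antizymes, was higher, at 124, 69.6, 51.7 and 43.8 CPM, as was the antizyme *Oaz2* with 0.61.

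The partners and antagonists of MYC had a positive median ratio between the DFAT libraries, 0.28, unlike the module. Of 10 genes of the MYC network at 5 or more CPM, 4 were higher in iWAT_DFAT than in eWAT_DFAT by more than 1.5-fold, against 17.6% of all genes, and none was lower by that much, against 9.1%. All 4 encode repressors that compete with MYC for MAX. *Mnt* was at 21.1, 10.0, 10.1 and 8.92 CPM, with a log2 ratio of 1.07 (0.99 to 1.15). *Mxi1* was at 19.2, 9.70, 8.001 and 8.74 CPM, with 0.98 (0.90 to 1.06). For both, iWAT_DFAT stood apart and the other 3 libraries lay close together. The other 2, named after their values were seen, were *Mxd4* with 99.7, 61.3, 74.9 and 130 CPM and *Mxd3* with 11.1, 6.83, 17.1 and 9.13 CPM, and neither was highest in iWAT_DFAT. *Max* itself was nearly level, at 34.4, 35.9, 37.8 and 33.9 CPM. *Mycl* and *Mycn*, the paralogs of *Myc*, were below 5 CPM in every library and had ratios opposite to that of *Myc*. *Mycl* was at 0.463, 4.003, 2.44 and 4.54 CPM, with a log2 ratio of -3.11 (-3.45 to -2.79) between the DFAT libraries. *Mycn*, with 10, 72, 29 and 349 UMIs, had -2.83 (-3.95 to -1.87).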

How the data were processed

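Single-cell libraries were made by the study with the 10x Genomics 3′ v3.1 kit. The authors ran Cell Ranger on mm10 with introns included, and deposited raw UMI counts for every barcode, before cell calling. The labels name version 7.0.0, and the file headers 7.1.0 for 3 libraries and 4 for iWAT_ASPC, so its counts may differ in processing. Library totals were 211396227 to 242282812 UMIs.

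Counts were summed over the cells of a library and scaled to 1000000 (CPM). CPM carry exact Poisson intervals, ratios exact conditional binomial intervals, both at 95% and for counting error only. A call is a ratio past 1.5-fold among genes that reached 5 CPM in either library. All 36 members are accounted for. From each other list of the pathway, the genes called between the DFAT libraries were ranked by ratio, and the first 2 up and the first 2 down were named. Members and lists were chosen with earlier results of these data known. Cells were thinned with seed 11. CellBender and DoubletFinder, which the Methods name, were not run. Doublets stay in the main values, and in 1 alternative the cells with the highest Scrublet scores (in scanpy) were removed, which kept 93.9 to 94.8% of the cells. The calculation of ratios and their intervals was checked on simulated Poisson counts with known folds. Such counts hold no spread between cells or cultures, so the check covers the calculation only. Alternatives were 11 planned ones and 1 added later. Scripts used scanpy 1.11.5, pandas 2.3.3, scipy 1.17.1, numpy 2.4.6 and matplotlib 3.10.9 under Python 3.11.15. Gene positions are from GENCODE on GRCm38. Protein sequences were not used here.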

Additional observations from a re-analysis of the deposited data

Results flagged for a closer look

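The depot contrast of most members had opposite directions in DFAT cells and in ASPCs. The log2 ratio of iWAT over eWAT in DFAT cells minus that in ASPCs had a median of -0.68 over the 36 members. The difference rests on 1 library per group and was not tested. The file header of iWAT_ASPC also names another version of Cell Ranger, 4 against 7.1.0, and the part of this was not tested.

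For 28 members the ratio was below 0 in DFAT cells and above 0 in ASPCs. Both intervals were clear of 0 for 25 of them, and with size factors 24 members had these directions. The share of all genes with these directions is not given here. In the RNA polymerase I subunits the difference was -0.44 in *Polr1a* and -0.25 in *Polr1b*. In the nucleolar proteins it was -1.01 in *Pa2g4*, -0.84 in *Ncl*, -0.69 in *Nolc1*, -0.67 in *Npm1*, -0.54 in *Mybbp1a* and -0.48 in *Gnl3*. In the box C/D proteins it was -0.91 in *Nop58*, -0.90 in *Nop56*, -0.88 in *Rrp9* and -0.63 in *Fbl*, and in the box H/ACA proteins -0.86 in *Gar1* and -0.73 in *Dkc1*. In small subunit factors it was -0.88 in *Wdr43*, -0.76 in *Rrp12*, -0.73 in *Nop14* and -0.53 in *Utp20*. In large subunit factors it was -1.01 in *Wdr12*, -0.82 in *Nip7*, -0.74 in *Rrs1*, -0.70 in *Nop2*, -0.54 in *Ddx21*, -0.47 in *Pes1*, -0.44 in *Ppan* and -0.24 in *Noc2l*. In the mitochondrial chaperonin it was -0.96 in *Hspd1* and -0.92 in *Hspe1*.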

How the results depend on the processing

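With 12 alternatives, the median log2 ratio of the members stayed between -0.60 and -0.46 in iWAT_DFAT over eWAT_DFAT, between 0.075 and 0.22 in iWAT_ASPC over eWAT_ASPC and between 0.58 and 0.80 in eWAT_DFAT over eWAT_ASPC. In iWAT_DFAT over iWAT_ASPC it went from -0.13 to 0.13, and was reversed, at -0.13, in cells with 0 or 1 cell cycle UMIs, where 5 members passed 1.5-fold lower. In the same cells the iWAT_DFAT over eWAT_DFAT median was -0.60 with 19 members past 1.5-fold lower, and the eWAT_DFAT over eWAT_ASPC median was 0.63. In cells of 10000 to 30000 UMIs the iWAT_DFAT over eWAT_DFAT median was -0.59 with 18 members lower, and that of iWAT_DFAT over iWAT_ASPC was 0.0011. The mean over cells gave medians of -0.55 and 0.042 in these comparisons. Size factors gave medians of 0.075 in iWAT_ASPC over eWAT_ASPC, 0.019 in iWAT_DFAT over iWAT_ASPC and 0.58 in eWAT_DFAT over eWAT_ASPC, with 16 members past 1.5-fold in the last. Among members at 50 or more CPM the iWAT_DFAT over eWAT_DFAT median was -0.53, and 0 members passed 1.5-fold higher there or in iWAT_DFAT over iWAT_ASPC. Without cells holding markers of other types the eWAT_DFAT over eWAT_ASPC median was 0.80. *Myc*, the 1 member past 1.5-fold higher in iWAT_DFAT over eWAT_DFAT, sat at the limit, and the count was 0 without an upper limit on genes, without cells holding adipocyte markers, with free RNA subtracted and with size factors. The causes were not tested, and medians and shares over all genes were not computed under these alternatives. eWAT_DFAT was highest for 34 members under every alternative computed for all members but that of 0 or 1 cell cycle UMIs, where it was 33.

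No paired analysis was possible because each condition has 1 library and the labels give no replicate numbers. Leaving out a library was not run for the same reason, and the spread between cultures was not measured.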
